A study of Mus musculus with 76 samples.

Results

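The solute carriers are membrane proteins that move ions, nutrients, neurotransmitters and metals across cell and organelle membranes. They were followed here in the hippocampus of female mice that express mutant human tau. A gene was a member when its single symbol in the probe annotation begins with Slc and a number, with Slc1a2, Slc1a3, Slc2a1 and Slc4a5 left out, and each was read by the probe set of the highest mean signal over all 76 arrays. This gave 249 members among the 11807 genes that have a probe set of 1 symbol, 209 of them in a functional family and 54 listed as known from 1 cell type. Slc9a3r1 and Slc9a3r2 meet the rule by their symbols, although they encode scaffold proteins and carry nothing themselves. Slc17a7, Slc6a11, Slc13a4, Slc25a18 and Slc39a12 were not analysed here.

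Each array held RNA of the hippocampus of 1 mouse. rTg4510 mice carry human tau with the P301L mutation under a tetracycline-responsive promoter (TRE-htau, FVB/N) and the tetracycline-controlled transactivator tTA under the CaMKIIα promoter (129S6), which is active in excitatory neurons of the forebrain. Littermates called tTA have the transactivator but no tau transgene, and those called DN, for double negative, have no transgene at all. There were 10 rTg4510 mice around 1.9 months (aged 1.7 to 2.0), 10 around 4.7 (4.5 to 5.0) and 6 around 6.1 (5.9 to 6.3). tTA mice numbered 10 around 4.7 months (4.6 to 5.0), 10 around 6.1 (6.0 to 6.2) and 5 around 10.7 (10.7 to 10.8), and DN mice 10 around 4.7 (4.6 to 4.9), 10 around 6.1 (6.1 to 6.4) and 5 around 10.7 (10.7 to 10.8). No control mice of 1.9 months and no rTg4510 mice of 10.7 months were among the samples. All signals are log2 values, so that a difference of 1 is a doubling of signal, and signals of different probe sets cannot be ranked against each other. The median signal of an array lay between 5.235 and 5.387.

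Carriers divide the labour of brain tissue. Neurons use them to fill synaptic vesicles with transmitter and zinc and to keep chloride and calcium low, astrocytes to take up transmitter and to move bicarbonate and glutamine, endothelium to pass nutrients from the blood, and microglia to empty their lysosomes. Many are therefore read as marks of the cell that uses them, and the choroid plexus, which makes the cerebrospinal fluid, has a set of its own. The cell type lists used below come from this general knowledge, but were chosen with earlier results of these data known.

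The main question was how mutant tau on top of the transactivator alters the carriers, which the tTA littermates answer best because they share the transactivator. At 4.7 months 20 of the 249 carriers differed between rTg4510 and tTA mice (limma, Benjamini-Hochberg adjusted p under 0.05 over 22626 probe sets), 15 higher (6.02%) and 5 lower (2.01%). Of all genes on the same terms, 5.73% were higher and 3.38% lower. At 6.1 months 39 carriers differed, 22 higher (8.84%) and 17 lower (6.83%), against 6.23% of all genes higher and 8.64% lower. The median difference of the carriers was 0.01 at 4.7 months and 0.00 at 6.1 months, and that of all genes -0.01 and -0.02. Centring each array on its median moved the split to 10 higher and 7 lower at 4.7 months and to 16 higher and 20 lower at 6.1 months. Of the carriers called, 12 were called at both ages, each in the same direction, which is 60% of the calls at 4.7 months and 30.8% of those at 6.1 months. The matching shares over all genes were not counted, so this is not shown to be particular to the carriers.

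Counted by whole groups, no carrier separated every rTg4510 from every tTA mouse at 4.7 months, where 0.0762% of all genes did so upward and 0.0339% downward. At 6.1 months 7 carriers lay higher in every rTg4510 mouse than in any tTA mouse (Slc11a1, Slc14a1, Slc15a3, Slc20a1, Slc20a2, Slc39a1 and Slc44a1), where 1.71% of all genes did, and 6 lay lower (Slc17a6, Slc1a1, Slc24a3, Slc2a5, Slc30a3 and Slc6a15), where 1.58% of all genes did. With 6 rTg4510 mice at 6.1 months and 10 at 4.7 months, full separation is easier to reach at the older age. Separation here and below therefore does not compare the ages.

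By the cell type lists, 17 of the 39 carriers called at 6.1 months are listed for 1 type. Of all genes 6.23% were higher and 8.64% lower at 6.1 months, and 5.73% and 3.38% at 4.7 months. At 6.1 months 5 of 7 astrocyte carriers rose, and 4 of 6 microglial carriers rose and 1 fell. The astrocyte calls of Slc38a3, Slc7a11 and Slc7a10 were lost in 5, 4 and 10 of the 16 fits that left out 1 mouse. Carriers of excitatory neurons fell in 2 of 3, and those of neurons in general in 3 of 8. One of 3 oligodendrocyte carriers and 1 of 6 endothelial carriers rose. The other 22 called carriers have no listed cell type, with 11 higher and 11 lower. At 4.7 months 10 of the 20 called carriers were listed, and they were 3 microglial, 1 astrocyte, 1 endothelial, 1 meningeal and 1 choroid plexus carrier that rose, and 1 carrier of excitatory neurons and 2 of neurons in general that fell.

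**Figure D1:**
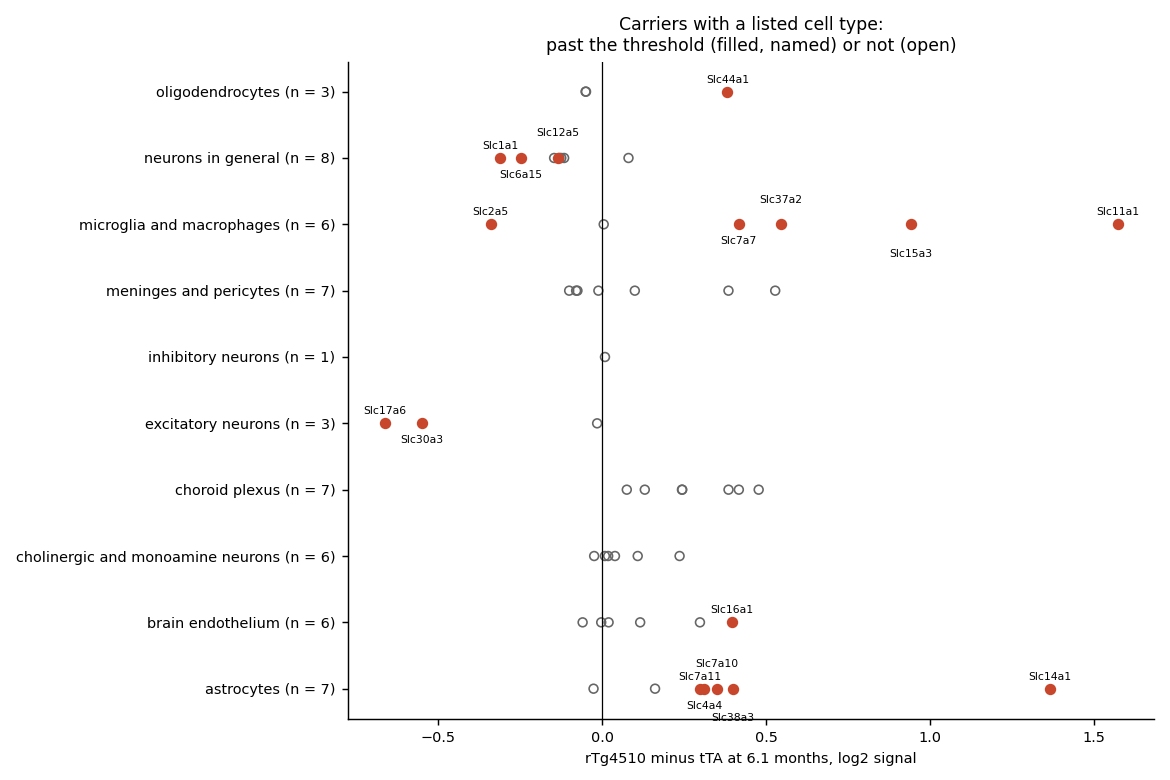
rTg4510 minus tTA difference in log2 signal at 6.1 months for the 54 carriers with a listed cell type, 1 point a gene, grouped by that cell type, with filled points for adjusted p under 0.05. The astrocyte and microglial carriers that passed lie above 0 apart from Slc2a5, and the neuronal carriers that passed lie below 0.

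Slc11a1 (NRAMP1), listed for microglia, rose more than any other carrier at both ages. This protein, which moves iron and manganese out of the phagosome of macrophages, gave signals of 3.54, 3.68 and 4.08 (lowest, median and highest) in tTA mice of 6.1 months and of 4.89, 5.33 and 5.64 in rTg4510 mice. At 4.7 months the same values were 3.56, 3.85 and 4.23 in tTA and 3.92, 5.02 and 5.73 in rTg4510 mice. Thus the genotypes were wholly apart at 6.1 months and overlapped at their edges at 4.7 months. The difference was 1.09 ± 0.155 (SE) at 4.7 months, a 2.13-fold rise (adjusted p = 2.33e-05), and 1.57 ± 0.108 at 6.1 months, 2.97-fold (adjusted p = 2.65e-11). In the rTg4510 mice of 1.9 months, which have no controls of their age, Slc11a1 was at 4.03, 4.36 and 4.81. DN mice of 4.7 months had 3.27, 3.55 and 3.93, and those of 6.1 months 3.44, 3.65 and 3.88, below every rTg4510 mouse of 6.1 months.

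Slc15a3, a lysosomal carrier of histidine and small peptides, had 3.50, 3.60 and 4.04 in tTA and 3.76, 4.29 and 4.78 in rTg4510 mice at 4.7 months, and 3.32, 3.55 and 3.75 against 3.85, 4.49 and 5.00 at 6.1 months. It rose by 0.58 ± 0.103 (adjusted p = 0.000348) and 0.94 ± 0.118 (adjusted p = 1.67e-06). Again the genotypes overlapped at the younger age and not at the older. Slc7a7, an exchanger of cationic amino acids, had 3.30, 3.58 and 3.77 in tTA and 3.75, 3.97 and 4.21 in rTg4510 mice at 6.1 months, with 1 rTg4510 mouse inside the tTA range. It rose there by 0.42 ± 0.070 (adjusted p = 0.000123) and was 0.27 ± 0.087 higher at 4.7 months (adjusted p = 0.0559). Slc37a2, a sugar phosphate exchanger of macrophages, rose by 0.42 ± 0.103 at 4.7 months (adjusted p = 0.0101) and 0.54 ± 0.158 at 6.1 months (adjusted p = 0.0208), with wide overlap at 6.1 months (tTA 3.40, 3.77 and 4.45, rTg4510 3.71, 4.32 and 4.97). The call at 6.1 months was lost without rTg4510 mouse7 or mouse10, at an adjusted p of at most 0.0892.

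Slc2a5, the fructose carrier GLUT5 known from microglia, went the other way. It had 3.51, 3.66 and 4.13 in tTA and 3.19, 3.43 and 3.51 in rTg4510 mice of 6.1 months, and it fell by 0.34 ± 0.081 (adjusted p = 0.00466), with no mouse of one genotype within the range of the other. Against DN mice of 6.1 months (3.40, 3.61 and 3.82) the difference was -0.21 ± 0.081 (adjusted p = 0.0819), and at 4.7 months it was -0.15 ± 0.070 against tTA (adjusted p = 0.22). The last listed member, Slc29a3, a lysosomal nucleoside carrier, differed by 0.00 ± 0.069 at 6.1 months (adjusted p = 0.982). The signals of these microglial carriers in controls lay below 5.34, the median of all probe sets, as did the mean signal of 133 of the 249 carriers. The general microglial markers moved with them. Of 7 measured, 5 rose at 4.7 months and 6 at 6.1 months, and their mean log2 signal in 6.1-month mice ran from 7.77 to 8.25 in rTg4510 and from 6.92 to 7.16 in tTA. Their part in the rises of the carriers was not tested. In whole tissue, fewer or more cells of a type cannot be told apart from less or more RNA per cell.

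The promoters of Slc11a1 and Slc37a2, microglial carriers that rose, and of the zinc carrier Slc30a3, which fell, are shown because these genes move with opposite sign in the same tissue. That of Slc15a3 is not shown. The letters GAGGAA, the core of sites for the myeloid factor PU.1, were searched on both strands in the promoter window at the start of each gene (RefSeq, GRCm38.p6) and stand in capitals. Slc11a1 (chr1:74374953-74375252, plus strand) holds 1 match, at position 99. Slc37a2 (chr9:37255689-37255988, minus strand) holds 1 match on the reverse strand, at position 96. Slc30a3 (chr5:31108195-31108494, minus strand, the first of its 2 windows) holds none.
Slc11a1: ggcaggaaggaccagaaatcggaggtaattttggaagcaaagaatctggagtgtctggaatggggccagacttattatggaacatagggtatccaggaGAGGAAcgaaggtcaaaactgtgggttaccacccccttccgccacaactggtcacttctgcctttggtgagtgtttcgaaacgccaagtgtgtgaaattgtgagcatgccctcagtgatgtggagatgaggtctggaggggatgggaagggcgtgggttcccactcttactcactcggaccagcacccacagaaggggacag
Slc37a2: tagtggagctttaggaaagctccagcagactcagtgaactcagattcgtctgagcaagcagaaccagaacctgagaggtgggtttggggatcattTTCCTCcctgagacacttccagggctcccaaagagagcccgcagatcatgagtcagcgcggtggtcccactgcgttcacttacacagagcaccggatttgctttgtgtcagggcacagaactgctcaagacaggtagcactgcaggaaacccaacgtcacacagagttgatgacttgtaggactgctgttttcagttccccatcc
Slc30a3: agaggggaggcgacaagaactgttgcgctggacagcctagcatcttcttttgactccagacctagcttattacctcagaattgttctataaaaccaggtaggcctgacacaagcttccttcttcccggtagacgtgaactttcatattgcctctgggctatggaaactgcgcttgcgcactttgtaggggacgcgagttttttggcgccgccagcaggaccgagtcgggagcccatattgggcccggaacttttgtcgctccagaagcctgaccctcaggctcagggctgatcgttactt
These letters are common. Of all 32851 promoter windows 28.3% hold them, and of the 194 carriers with a window 51 (26.3%) hold them in at least 1 window. Slc7a7 holds them in 3 of its 5 windows, Slc8a2 in its 1 window, and Slc1a1 and Slc24a3 in none.

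**Figure D2:**
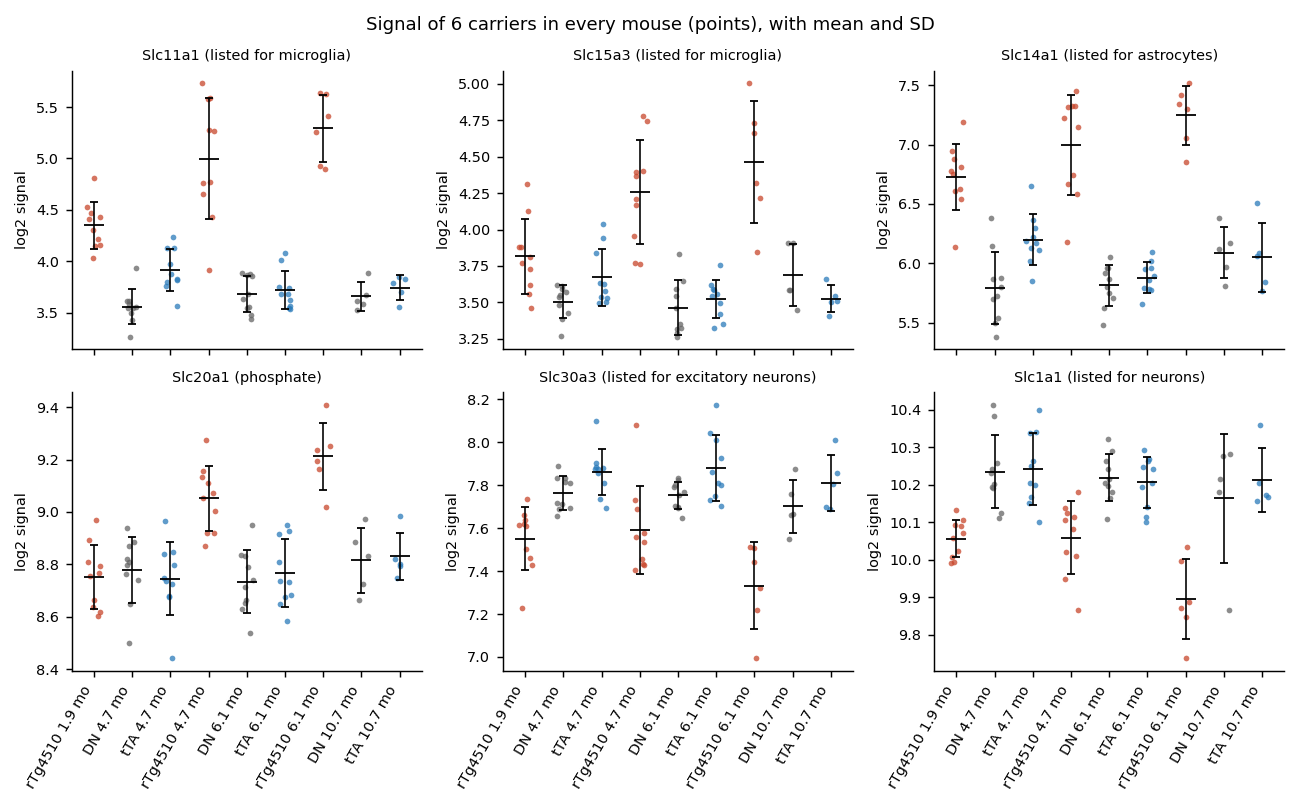
Log2 signal of Slc11a1, Slc15a3, Slc14a1, Slc20a1, Slc30a3 and Slc1a1 in each mouse (points) of the 9 groups of genotype and age in months, with bars for the mean ± SD. In the 6.1-month groups every rTg4510 mouse lies above every tTA mouse for the first 4 genes and below for Slc30a3 and Slc1a1.

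Among the carriers listed for astrocytes, Slc14a1, the urea channel UT-B, moved most. Its signals in tTA mice were 5.86, 6.18 and 6.65 at 4.7 months and 5.66, 5.88 and 6.09 at 6.1 months. In rTg4510 mice they were 6.18, 7.19 and 7.45 at 4.7 months and 6.85, 7.32 and 7.51 at 6.1 months. All 6 rTg4510 mice of 6.1 months thus exceeded all tTA mice of their age, while 8 of 10 did so at 4.7 months. The rise was 0.80 ± 0.135 (1.74-fold, adjusted p = 0.000229) and 1.37 ± 0.088 (2.58-fold, adjusted p = 6.57e-12), and the other probe set of the gene rose by 0.87 and 1.12. At 1.9 months rTg4510 mice had 6.14, 6.77 and 7.19. The DN mice, at 5.38, 5.77 and 6.38 and at 5.49, 5.84 and 6.05 at the same ages, lay below every rTg4510 mouse of 6.1 months.

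Slc4a4, the sodium bicarbonate cotransporter, had 8.09, 8.30 and 8.59 in tTA and 8.47, 8.64 and 8.76 in rTg4510 mice of 6.1 months and rose by 0.31 ± 0.060 (adjusted p = 0.000573), whereas at 4.7 months the difference was 0.03 (adjusted p = 0.859). Its probe sets did not tell the same story. The others differed from tTA by 0.10, 0.17 and 0.05 at 6.1 months without passing, and against DN one of them fell by 0.61 (adjusted p = 2.11e-07) where the brightest rose by 0.21 (adjusted p = 0.0126). Slc38a3 (SNAT3), which exports glutamine, rose by 0.40 ± 0.123 at 6.1 months (adjusted p = 0.0314) with overlapping mice (tTA 7.08, 7.50 and 7.73, rTg4510 7.28, 7.83 and 8.41). Slc7a11, the cystine-glutamate exchanger, rose by 0.30 ± 0.092 (adjusted p = 0.0312). Slc7a10 (Asc-1), a carrier of glycine and D-serine, rose by 0.35 ± 0.115 (adjusted p = 0.0447), from 6.96, 7.29 and 7.75 to 7.24, 7.65 and 8.12. The last 3 calls were the least secure, being lost in 5, 4 and 10 of the 16 fits that left out 1 mouse. That of Slc7a11 was also lost with a choroid plexus score as a covariate (adjusted p = 0.0603). Slc6a9 and Slc15a2, carriers of glycine and of small peptides, differed by -0.03 ± 0.067 and 0.16 ± 0.086 (adjusted p = 0.871 and 0.259). Of the 8 general astrocyte markers, 3 rose at 4.7 months and 7 at 6.1 months, when their mean signal ran from 9.50 to 9.82 in rTg4510 and from 8.99 to 9.23 in tTA mice, and their part in the carriers' rises was not tested.

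The sodium phosphate cotransporters Slc20a1 (PiT-1) and Slc20a2 (PiT-2), which are not listed for 1 cell type, rose at both ages. Slc20a1 had 8.44, 8.74 and 8.96 in tTA and 8.87, 9.06 and 9.27 in rTg4510 mice at 4.7 months, and 8.59, 8.74 and 8.95 against 9.02, 9.21 and 9.41 at 6.1 months. It rose by 0.31 ± 0.058 (adjusted p = 0.000787) and 0.45 ± 0.064 (adjusted p = 1.51e-05). At 1.9 months rTg4510 mice had 8.60, 8.76 and 8.97, inside the range of the controls of later ages. Slc20a2 stood at 7.65, 7.74 and 7.90 against 7.85, 8.16 and 8.34 at 4.7 months and at 7.91, 8.02 and 8.20 against 8.30, 8.41 and 8.71 at 6.1 months, rising by 0.38 ± 0.060 (adjusted p = 8.57e-05) and 0.41 ± 0.061 (adjusted p = 2.15e-05). Its other probe set was 0.28 higher at 4.7 months (adjusted p = 0.0523) and rose by 0.39 at 6.1 months. Both phosphate carriers therefore separated the genotypes mouse by mouse at the older age.

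Slc16a1 (MCT1), the lactate carrier of brain endothelium, had 7.82, 8.01 and 8.12 in tTA and 7.94, 8.26 and 8.40 in rTg4510 mice at 4.7 months, and 7.66, 7.91 and 8.02 against 7.91, 8.32 and 8.48 at 6.1 months. It rose by 0.24 ± 0.050 (adjusted p = 0.00226) and 0.40 ± 0.069 (adjusted p = 0.000201), with some overlap at each age. The tTA mice were low beside DN mice, as 5 of 10 at 4.7 months and 7 of 10 at 6.1 months lay below all DN mice. Of the rTg4510 mice 1 of 10 lay above and 1 below all DN mice at 4.7 months, and 4 of 6 above and 1 below at 6.1 months. Against DN, Slc16a1 did not pass at 4.7 months, and its call at 6.1 months was lost without rTg4510 mouse7 or mouse10. The other endothelial carriers did not pass at 6.1 months, among them Slc7a5 (LAT1), which takes up large neutral amino acids, at 0.12 ± 0.071 (adjusted p = 0.348), and Slc7a1, a carrier of arginine and lysine, at -0.06 ± 0.064 (adjusted p = 0.638). Slc44a1, a choline transporter-like protein listed for oligodendrocytes, had 7.65, 7.85 and 8.08 in tTA and 8.12, 8.21 and 8.37 in rTg4510 mice of 6.1 months and rose by 0.38 ± 0.067 (adjusted p = 0.000218). The other oligodendrocyte carriers, Slc45a3 and Slc5a11, both differed by -0.05 without passing (adjusted p = 0.668 and 0.664). Their mean signals, 3.35 and 3.38, lay far below the median of all probe sets (5.34). Whether the rise was shared by the list therefore cannot be read from them.

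The neuronal carriers that passed were lower in rTg4510 mice, 1 of 3 listed for excitatory neurons and 2 of 8 for neurons in general at 4.7 months, and 2 and 3 of them at 6.1 months. Of all genes 3.38% were lower at 4.7 months and 8.64% at 6.1 months. Slc30a3 (ZnT3) loads zinc into the synaptic vesicles of glutamatergic neurons, the mossy fibres above all. It had 7.69, 7.88 and 8.10 in tTA and 7.41, 7.55 and 8.08 in rTg4510 mice at 4.7 months, and 7.70, 7.84 and 8.17 against 6.99, 7.38 and 7.51 at 6.1 months. At 4.7 months 1 rTg4510 mouse was near the highest tTA mouse, and at 6.1 months all lay below the lowest. The fall was by 0.27 ± 0.062 (adjusted p = 0.00488) and by 0.55 ± 0.071 (1.46-fold, adjusted p = 2.74e-06). DN mice of 6.1 months, at 7.64, 7.76 and 7.83, also lay above all rTg4510 mice of that age.

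Slc17a6 (VGLUT2), which fills vesicles with glutamate, had 7.16, 7.47 and 7.98 in tTA and 6.36, 6.97 and 7.06 in rTg4510 mice of 6.1 months and fell by 0.66 ± 0.162 (1.58-fold, adjusted p = 0.00578). The tTA mice of 6.1 months were themselves high, as tTA mice of 4.7 and 10.7 months had medians of 6.88 and 6.99. Against DN of 6.1 months (6.37, 7.33 and 7.94) the difference was -0.36 ± 0.162 (adjusted p = 0.141), at 4.7 months it was -0.04 ± 0.150 against tTA (adjusted p = 0.92), and the other probe set gave -0.46 at 6.1 months (adjusted p = 0.122). Slc6a17, a vesicular carrier of neutral amino acids and the remaining listed carrier of excitatory neurons, differed by -0.02 ± 0.041 (adjusted p = 0.878).

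Slc1a1 (EAAC1), the glutamate and cysteine carrier of neurons, had 10.10, 10.23 and 10.40 in tTA and 9.87, 10.09 and 10.18 in rTg4510 mice at 4.7 months, and 10.10, 10.22 and 10.29 against 9.74, 9.88 and 10.03 at 6.1 months. It fell by 0.18 ± 0.045 (adjusted p = 0.0095) and by 0.31 ± 0.043 (1.24-fold, adjusted p = 8.37e-06), small changes that cleared the narrow spread of this probe set. Its other probe set fell at 4.7 months (-0.22, adjusted p = 0.0452) and gave -0.13 at 6.1 months (adjusted p = 0.461). Slc24a3 (NCKX3), which exports calcium against sodium and potassium and has no listed cell type, fell by 0.16 ± 0.044 (adjusted p = 0.0197) and by 0.37 ± 0.044 (adjusted p = 7.43e-07). Its 6.1-month mice had 10.85, 11.01 and 11.10 in tTA and 10.44, 10.64 and 10.80 in rTg4510, without overlap.

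Slc6a15, a neuronal carrier of neutral amino acids, had 8.36, 8.50 and 8.67 in tTA and 8.19, 8.24 and 8.35 in rTg4510 mice of 6.1 months and fell by 0.25 ± 0.057 (adjusted p = 0.00351). Slc12a5 (KCC2), the chloride exporter that makes GABA inhibitory, fell by 0.13 ± 0.036 (adjusted p = 0.0125) among overlapping mice (10.78, 10.86 and 10.97 against 10.65, 10.74 and 10.85), and its other probe set differed by -0.05 (adjusted p = 0.852). Slc8a2, a sodium-calcium exchanger, fell at 4.7 months by 0.35 ± 0.080 (adjusted p = 0.0047) and differed by -0.13 ± 0.100 at 6.1 months (adjusted p = 0.472). In tTA mice its median was itself lower at the older age (6.22 at 4.7 and 5.85 at 6.1 months), so that the rTg4510 medians of 5.86 and 5.77 met different controls. The neuronal glucose carrier Slc2a3 (GLUT3), the bicarbonate carriers Slc4a3 and Slc4a10, the monocarboxylate carrier Slc16a7 and the inhibitory vesicle carrier Slc32a1 (VGAT) did not pass at 6.1 months, with differences of -0.12, -0.15, 0.08, -0.12 and 0.01. None of the 6 carriers of cholinergic and monoamine neurons passed at either age. Their mean signals, from 2.94 to 3.35, lay far below the median of all probe sets (5.34), so a change could hardly be read from them.

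Neuronal markers outside the family were read beside these falls. The 7 pan-neuronal markers had 1 lower at 4.7 months and 2 lower at 6.1 months, and the 3 measured markers of CA1 pyramidal cells were lower at both ages, with a mean signal of 6.59 to 7.32 in rTg4510 and 8.02 to 8.40 in tTA mice of 6.1 months. How far these markers and the neuronal carriers share a source was not tested.

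**Figure D3:**
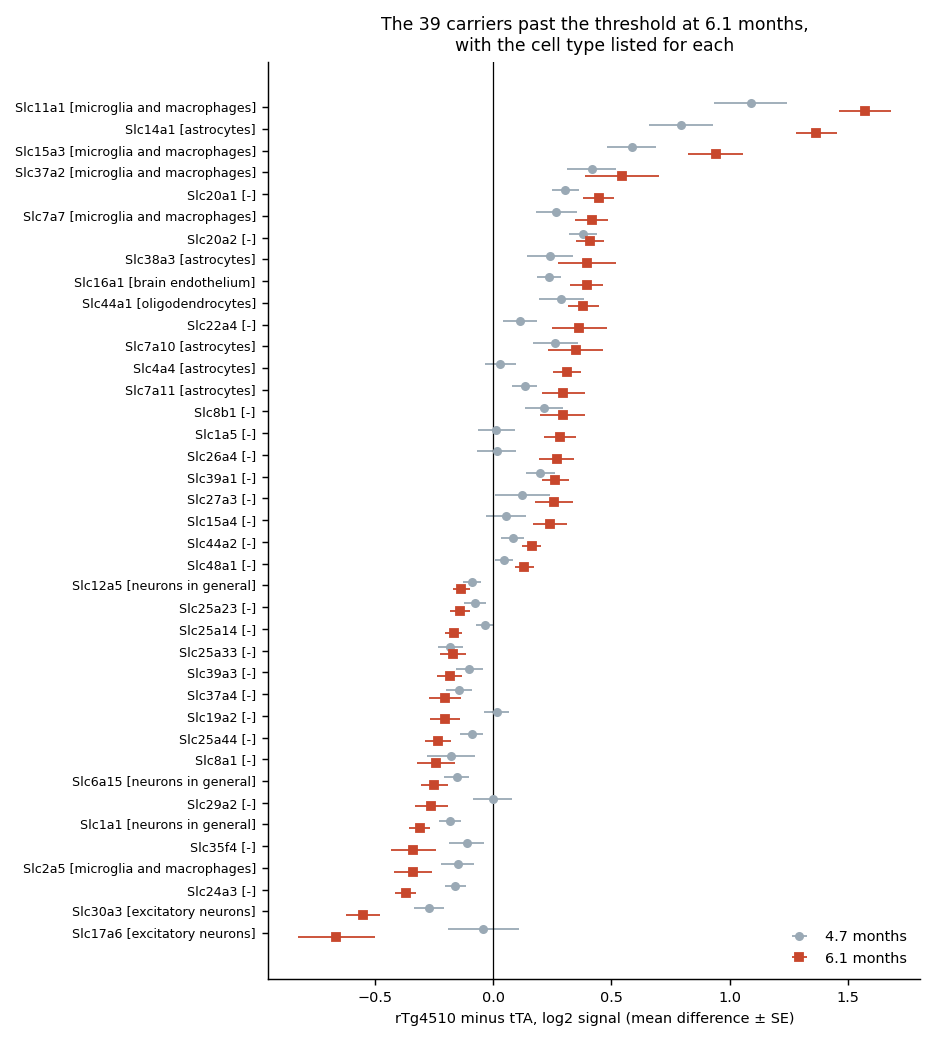
rTg4510 minus tTA difference in log2 signal at 4.7 months and at 6.1 months, with bars for ± SE, for the 39 carriers called at 6.1 months, with the listed cell type of each. Slc11a1 and Slc14a1 lie farthest above 0 at both ages, and Slc17a6 and Slc30a3 farthest below 0 at 6.1 months.

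Family counts are to be read beside those of all genes, of which 5.73% were higher and 3.38% lower at 4.7 months. At 6.1 months 6.23% were higher and 8.64% lower. By function, the amino acid and peptide carriers rose in 3 and fell in 0 of 34 members at 4.7 months and rose in 7 and fell in 1 at 6.1 months. Besides those above they include Slc1a5 (ASCT2), a neutral amino acid exchanger (0.28, adjusted p = 0.00437), and Slc15a4, a lysosomal histidine carrier (0.24, adjusted p = 0.0289), both up at 6.1 months. Among 25 metal carriers 2 rose and 2 fell at 6.1 months. Slc39a1 (ZIP1), which takes up zinc, rose by 0.20 at 4.7 months (adjusted p = 0.0376, lost in 10 of 20 fits that left out 1 mouse and with centred arrays) and by 0.26 ± 0.057 at 6.1 months (adjusted p = 0.00205), with 6.03, 6.25 and 6.31 in tTA and 6.33, 6.46 and 6.69 in rTg4510 mice of 6.1 months. Slc39a3 (ZIP3), of the same family, fell by 0.18 (adjusted p = 0.0175), although its other probe set differed by 0.05. Zinc carriers thus moved in both directions within the same mice.

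Of the 31 mitochondrial carriers, 1 rose and 1 fell at 4.7 months. None rose and 4 fell at 6.1 months, when 6.23% of all genes were higher and 8.64% lower. Their median difference at 6.1 months was -0.03 beside -0.02 over all genes. The 4 that fell were Slc25a44, a carrier of branched-chain amino acids (-0.23, adjusted p = 0.00402), the pyrimidine nucleotide carrier Slc25a33 (-0.17, adjusted p = 0.0425), Slc25a14 (-0.17, adjusted p = 0.00193) and the ATP-magnesium and phosphate carrier Slc25a23 (-0.14, adjusted p = 0.0244). The call of Slc25a33 was lost in 10 of the 16 fits that left out 1 mouse, and those of Slc25a33 and Slc25a23 with the choroid plexus score described below as a covariate (adjusted p = 0.0891 and 0.0535). Among the 31 chloride, bicarbonate, proton and calcium carriers 3 rose and 3 fell at 6.1 months. Slc8b1 (0.29, adjusted p = 0.0431), the sodium-calcium exchanger of mitochondria, was up, and Slc8a1 (-0.24, adjusted p = 0.0457), that of the plasma membrane, was down. Both calls were lost with that score (adjusted p = 0.0866 and 0.063), and that of Slc8a1 also in 10 of the 16 fits.

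The 27 sugar, lactate and energy carriers had 2 higher and 2 lower at 6.1 months, when 6.23% of all genes were higher and 8.64% lower. Among them Slc37a4, which takes glucose-6-phosphate into the endoplasmic reticulum, fell by 0.20 (adjusted p = 0.0466). The 24 nucleoside and nucleotide sugar carriers had 0 higher and 2 lower, the nucleoside carrier Slc29a2 (ENT2) at -0.26 (adjusted p = 0.0118) and Slc35f4 at -0.34 (adjusted p = 0.0162). Of 22 organic ion carriers only Slc22a4, which takes up ergothioneine, passed, at 0.36 (adjusted p = 0.0371). None of the 15 neurotransmitter carriers rose, while 1 fell at 4.7 months and 2 fell at 6.1 months. In the 40 members of no named family 3 rose at 4.7 months, and 7 rose and 1 fell at 6.1 months, the one that fell being the thiamine carrier Slc19a2 (-0.20, adjusted p = 0.0312). With the score as a covariate the calls of Slc15a4, Slc37a4, Slc22a4 and Slc19a2 were lost too (adjusted p = 0.0521, 0.0955, 0.0651 and 0.0657), and that of Slc22a4 in 4 of 16 fits that left out 1 mouse.

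Proteins that work with the carriers were taken as a second list, with the sodium pump, the ammonia and lactate enzymes, carbonic anhydrases, metal binders and carrier chaperones. Of 22 measured, 4 rose at 4.7 months, and 10 rose and 1 fell at 6.1 months, with median differences of 0.11 and 0.16. At 6.1 months the potassium channel Kcnj10 of astrocytes rose by 0.50 (adjusted p = 3.5e-05), transferrin (Trf) by 0.56 (adjusted p = 5.91e-05), ferritin light chain (Ftl1) by 0.51 (adjusted p = 4.5e-06) and the glial pump subunit Atp1b2 by 0.23 (adjusted p = 1.39e-05). Lactate dehydrogenase A (Ldha) fell by 0.11 (adjusted p = 0.0284).

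The carriers with the widest spread between mice of 1 group, Slc16a8, Slc4a2, Slc6a20a, Slc6a13 and Slc22a6, are all listed for choroid plexus or meninges. The median within-group SD over the 249 carriers was 0.134, whereas it was 0.787 for Slc16a8 (a lactate carrier of this epithelium), 0.778 for Slc4a2 (a chloride-bicarbonate exchanger), 0.749 for Slc6a20a (a proline carrier) and 0.719 for Slc6a13 (a GABA carrier of the meninges). The choroid plexus carriers were read beside a choroid plexus score, the mean log2 signal of 7 choroid plexus markers that are no carriers. In tTA mice of 6.1 months the mouse of the lowest score (4.30) had Slc4a2 at 5.75, Slc16a8 at 2.97 and Slc12a2 at 8.48, and the mouse of the highest score (8.48) had them at 8.21, 5.48 and 9.62. Among DN mice of 4.7 months Slc4a2 was 5.64 where the score was lowest (4.20) and 7.99 where it was highest (8.44). Slc4a2 thus ran from low to high among controls too. Slc6a20a ran from 5.078 to 7.155 in the same 2 tTA mice of 6.1 months and from 4.633 to 5.911 in the same DN mice of 4.7 months. In the tTA mice of 4.7 months with the lowest and the highest score it was 5.49 and 5.83.

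The score itself was 7.10 ± 1.48 (mean ± SD) in rTg4510, 5.40 ± 1.52 in tTA and 5.87 ± 1.58 in DN mice of 4.7 months, and 7.31 ± 1.50, 6.49 ± 1.56 and 6.46 ± 1.06 at 6.1 months. Carriers of this epithelium were read against that. Slc12a2 (NKCC1), the sodium-potassium-chloride importer, rose by 0.40 ± 0.121 at 4.7 months (adjusted p = 0.0403, tTA 8.40, 8.64 and 9.39, rTg4510 8.59, 9.09 and 9.45), and was 0.12 higher with the score as a covariate (adjusted p = 0.512), no longer past the threshold. Slc6a20a, listed for meninges, rose by 0.95 ± 0.303 (adjusted p = 0.0492) and was 0.81 higher with the score (adjusted p = 0.227). Both calls were lost in most fits that left out 1 mouse, 14 and 16 of 20. Slc4a2 differed by 0.90 ± 0.335 (adjusted p = 0.103), the copper carrier Slc31a1 by 0.52 ± 0.185 (adjusted p = 0.0871) and Slc16a8 by 0.74 ± 0.327 (adjusted p = 0.19). None of the choroid plexus or meningeal carriers passed at 6.1 months.

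With the score as a covariate, 9 of the 20 calls at 4.7 months and 29 of the 39 at 6.1 months still passed. Those kept at 4.7 months included Slc11a1 at 1.20, Slc14a1 at 0.79, Slc15a3 at 0.66, Slc20a1 at 0.34, Slc20a2 at 0.31, Slc16a1 at 0.23 and Slc30a3 at -0.26. Among those lost at that age were Slc37a2 (0.22, adjusted p = 0.161), Slc1a1 (-0.15, adjusted p = 0.0896) and Slc8a2 (-0.27, adjusted p = 0.0639).

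**Figure D4:**
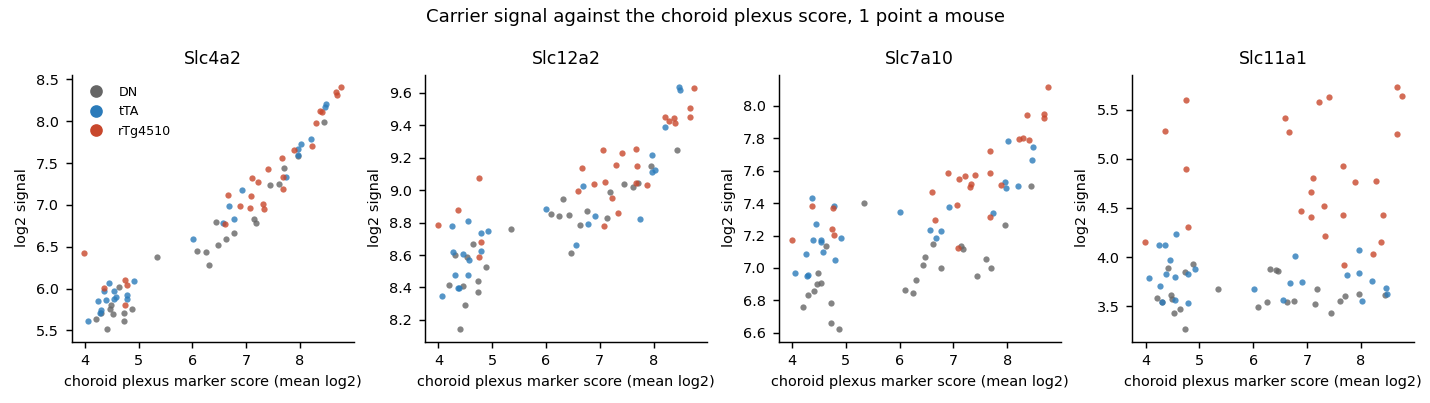
Log2 signal of Slc4a2, Slc12a2, Slc7a10 and Slc11a1 against the choroid plexus score (mean log2 signal of 7 marker genes), 1 point a mouse, coloured by genotype. Slc4a2 and Slc12a2 are high where the score is high in every genotype, while Slc11a1 is higher in most rTg4510 mice at low and at high scores.

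Against DN mice, which lack the transactivator too, more carriers passed. These comparisons use the same rTg4510 mice as those above. At 4.7 months 39 differed, 29 higher (11.6%) and 10 lower (4.02%), beside 7.85% and 7.91% of all genes. At 6.1 months 51 differed, 34 higher (13.7%) and 17 lower (6.83%), beside 8.55% and 11.4% of all genes. Slc11a1 was 1.44 and 1.62 above DN at the 2 ages (adjusted p = 4.04e-08 and 8.71e-12). Slc7a10 was 0.61 and 0.63 above DN (adjusted p = 2.1e-05 and 0.000194), compared with 0.26 and 0.35 above tTA. Slc30a3 was -0.17 against DN at 4.7 months (adjusted p = 0.0581) and fell by 0.42 at 6.1 months (adjusted p = 7.41e-05).

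Some carriers passed only in the comparison with DN, as Slc27a2, an importer and activator of very long chain fatty acids. It had 4.52, 5.24 and 5.45 in DN, 4.64, 4.90 and 5.17 in tTA and 4.49, 4.69 and 5.00 in rTg4510 mice of 6.1 months, and fell by 0.45 against DN (adjusted p = 0.0044). The tTA mice lay nearer the rTg4510 than the DN mice. Slc25a13, the aspartate-glutamate carrier of mitochondria, rose by 0.46 against DN at 6.1 months (adjusted p = 0.00059), and by 0.28 in tTA against DN mice (adjusted p = 0.0417, lost in 13 of 20 fits that left out 1 mouse and without the mice numbered 75 and above).

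The transactivator without tau went with few changes. tTA against DN mice gave 9 carriers at 4.7 months, 5 higher and 4 lower, where 1.51% of all genes were higher and 3.16% lower. It gave 10 at 6.1 months, 7 higher and 3 lower, where 2.7% and 3.62% of all genes were, and 1 at 10.7 months, which was lower, where 0.339% and 0.762% of all genes were higher and lower. Without the mice of 6.1 months numbered 75 and above, 2 of the 10 calls of that age were left, Slc39a6 and Slc44a2. Those mice were DN mouse78, mouse79 and mouse80 and rTg4510 mouse75, and none was a tTA mouse.

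Slc44a2, a choline transporter-like protein, was higher in tTA mice throughout. It had 7.82, 7.99 and 8.16 in DN and 8.13, 8.25 and 8.44 in tTA mice of 4.7 months, 7.95, 8.05 and 8.19 against 8.17, 8.24 and 8.39 at 6.1 months, and 7.86, 7.96 and 8.05 against 8.13, 8.20 and 8.32 at 10.7 months. It rose by 0.27 ± 0.048 (adjusted p = 0.000317) and 0.18 ± 0.036 (adjusted p = 0.00214) at the first 2 ages, and was 0.26 ± 0.059 higher at 10.7 months (adjusted p = 0.0704), where no mouse overlapped. Against tTA mice of 6.1 months the rTg4510 mice also passed, 0.16 higher. At 8.24, 8.33 and 8.47 at 4.7 months and 8.34, 8.39 and 8.55 at 6.1 months, rTg4510 mice were 0.36 and 0.34 above DN. Of its other probe sets 1 passed at 6.1 months (0.16, adjusted p = 0.0266), and none at 4.7 months.

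Slc39a6 (ZIP6), a zinc importer, passed in tTA against DN mice at 6.1 months alone. DN mice had 8.71, 8.83 and 8.98 and tTA mice 8.44, 8.50 and 8.65, a fall by 0.33 ± 0.042 (adjusted p = 5.13e-06) without overlap, and the other probe set fell by 0.44. At 4.7 and 10.7 months the differences were -0.08 and -0.11 (adjusted p = 0.448 and 0.664). It was the DN median that changed with age, at of 8.61, 8.83 and 8.60 at the 3 ages, beside 8.53, 8.50 and 8.52 in tTA.

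Slc25a42, the coenzyme A carrier of mitochondria, was higher in most DN mice at 4.7 months, with overlapping ranges. DN mice had 6.43, 6.86 and 7.05, tTA mice 6.45, 6.50 and 6.60 and rTg4510 mice 6.31, 6.47 and 6.64, so that tTA fell by 0.32 ± 0.057 (adjusted p = 0.000359) and rTg4510 by 0.35 (adjusted p = 3.98e-05) against DN. At 6.1 months the DN median was 6.52 and tTA differed by -0.03 (adjusted p = 0.897). Slc6a15 was 0.30 ± 0.052 above DN in tTA mice of 4.7 months (adjusted p = 0.000206) and -0.01 at 6.1 months (adjusted p = 0.967).

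Slc26a4 (pendrin), an anion exchanger, had DN medians of 6.90, 6.80 and 7.05 and tTA medians of 6.75, 6.67 and 6.59 at 4.7, 6.1 and 10.7 months. It was the carrier called at 10.7 months (-0.39 ± 0.080, adjusted p = 0.036, lost in 8 of 10 fits that left out 1 mouse), and it also fell at 6.1 months (-0.22 ± 0.064, adjusted p = 0.0404, lost in 12 of 20). In rTg4510 against tTA mice of 6.1 months it rose by 0.27 (adjusted p = 0.0147, lost in 1 of 16). Slc7a10 and the glycine carrier Slc6a9 of astrocytes were 0.35 ± 0.095 and 0.16 ± 0.045 higher in tTA mice of 4.7 months (adjusted p = 0.03 and 0.0425), and lost the call in 7 and 16 of 20 such fits. The dentate granule cell markers were also lower with the transactivator, at a mean of 5.93 against 6.84 log2 at 4.7 months and 5.76 against 6.87 at 6.1 months, and whether a carrier follows them was not tested.

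**Figure D5:**
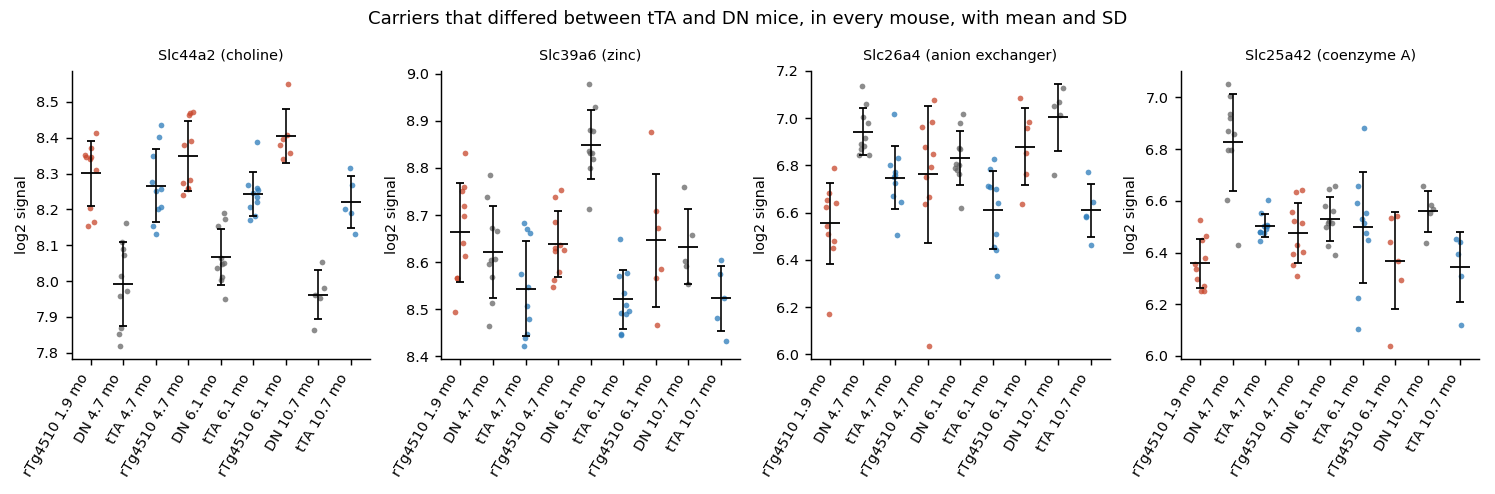
Log2 signal of Slc44a2, Slc39a6, Slc26a4 and Slc25a42 in each mouse (points) of the groups of genotype and age in months, with bars for the mean ± SD. Slc44a2 is higher with the transactivator at every age, while the DN group stands apart at 6.1 months for Slc39a6 and at 4.7 months for Slc25a42.

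Each genotype was also compared across its own ages (limma, F test). In rTg4510 mice 9 carriers changed over 1.9, 4.7 and 6.1 months, beside 2.87% of all genes. With no controls of 1.9 months, changes from that age cannot be told apart from those of normal maturation. From 1.9 to 6.1 months Slc11a1 rose by 0.94, Slc15a3 by 0.65, Slc20a2 by 0.53, Slc20a1 by 0.46 and Slc25a13 by 0.21. Slc6a15 fell by 0.35, Slc6a9 by 0.26, Slc24a3 by 0.24 and Slc9b1, a sodium-proton exchanger, by 0.20. The mean signal of Slc9b1 was 2.99, far below the median of all probe sets (5.34). The phosphate carrier Slc20a1 had medians of 8.76, 9.06 and 9.21 (adjusted p = 0.000175) and Slc20a2 of 7.96, 8.16 and 8.41 (adjusted p = 0.000279), each higher at each later age. The fall of Slc6a9 lay between 1.9 and 4.7 months (-0.24, and -0.26 at 6.1 months), whereas that of Slc24a3 lay after 4.7 months (-0.04 at 4.7 months). Slc14a1, with medians of 6.77, 7.19 and 7.32, did not pass.

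In tTA mice 2 carriers changed over 4.7, 6.1 and 10.7 months, Slc17a6 and Slc20a2, beside 0.296% of all genes, and in DN mice 2 did, Slc39a6 and Slc25a42, beside 0.364%. Slc20a2 was 0.27 higher at 6.1 than at 4.7 months and 0.24 higher at 10.7 months in tTA mice. Slc17a6 was 0.67 higher at 6.1 and 0.26 higher at 10.7 months. No carrier had a tTA minus DN difference that varied among the ages, where 0.0423% of all genes did, although 16 carriers had an unadjusted limma p under 0.05.

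Larger differences at 6.1 than at 4.7 months were tested as an interaction, and no carrier passed in limma, as no gene did in either direction (0% and 0%), with 18 carriers at an unadjusted p under 0.05. The rise of Slc11a1 was 0.48 ± 0.206 larger at 6.1 months (adjusted p = 0.551) and that of Slc14a1 0.57 ± 0.176 larger (adjusted p = 0.356). The falls of Slc30a3 and Slc24a3 were deeper by differences of -0.28 ± 0.095 and -0.21 ± 0.062 (adjusted p = 0.388 and 0.353). A carrier called at 6.1 months and not at 4.7 months is therefore not shown to differ between the ages.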

How the data were processed

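Hippocampal RNA of 76 female mice was amplified (NuGEN Ovation Pico WTA) and hybridised to HT-MG-430A arrays, 1 array a mouse. The authors summarised the scans by RMA, and the deposited values are log2 signals per probe set, already background-corrected and quantile-normalised. RMA draws low signals together, so folds of dim genes are understated. Because array signals carry no read depth, the number of mice limits the precision.

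Of 22716 probe sets, 90 controls were left out and 22626 tested. 18003 have 1 listed symbol, 287 several and 4336 none in the platform annotation. All 249 carriers kept their symbol in RefSeq (GRCm38.p6), and 84 have more than 1 probe set. Genotypes were compared within an age in 1 fit of the 3 genotypes (limma 3.58.1, R 4.3.3, two-sided moderated test, Benjamini-Hochberg over all probe sets, threshold 0.05, no fold threshold). Ages were compared within a genotype by an F test, and the change of a difference with age by an interaction term. Summaries and plots used Python 3.11.15, numpy 2.4.6, pandas 2.3.3, scipy 1.17.1 and matplotlib 3.10.9. The scripts were tested on simulated data. Groups and mouse numbers come from the labels, which do not say whether mice were processed in batches. Whether the tTA array of 6.1 months that the study excluded is one of these 76 cannot be read from the labels.

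Alternatives were unmoderated variances, other sets of groups in the fit, the linear scale, brighter probe sets alone (mean at or above the median of 5.34), centred or quantile-normalised arrays, the choroid plexus score as a covariate, other probe sets of a gene, leaving out each mouse, and leaving out the mice of 6.1 months numbered 75 and above. Named carriers were the largest changes in each direction and comparison, the best of each family and cell type list, and some set genes, of which only part are printed. Slc15a4, Slc1a5, Slc8b1, Slc37a4, Slc19a2, Slc4a3, Slc16a7, Slc7a1, Slc16a8, Slc31a1, Slc6a13 and Slc22a6 lie outside that rule and were named after their values were seen. The members, families, cell type, marker and partner lists were chosen with earlier results of these data known.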

Additional observations from a re-analysis of the deposited data

Results flagged for a closer look

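Within each group of mice, the highest and lowest signal of the 26 carriers described mouse by mouse were compared with the nearest other mouse by Dixon's criterion. Of 234 groups 17 held such a mouse, and chance gives about 1 in 20. Only values are given here. Mouse37 (rTg4510, 4.7 months) stood apart in 3 carriers. Its Slc30a3 was 8.08 (next 7.73), its Slc17a6 7.623 (next 6.96) and its Slc26a4 6.036 (next 6.64), so its glutamatergic vesicle carriers were the highest of its group. Mouse119 (DN, 10.7 months) was also apart in 3, with Slc4a4 at 8.893 (next 8.44), Slc1a1 at 9.866 (next 10.18) and Slc6a9 at 7.111 (next 6.82). Mouse89 (rTg4510, 1.9 months) had Slc6a20a at 8.563 (next 7.31) and Slc4a4 at 8.276 (next 8.53). Mouse70, whose choroid plexus score was the highest of the DN mice of 4.7 months, had Slc7a10 at 7.503 (next 7.05) and Slc38a3 at 7.838 (next 7.31). Mouse63, with the highest score of the tTA mice of that age, had Slc12a2 at 9.388 (next 8.82).

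The remaining 6 were single mice. At 4.7 months Slc11a1 was 3.931 in DN mouse55 (next 3.62), Slc30a3 8.1 in tTA mouse69 (next 7.90) and Slc6a9 6.861 in tTA mouse66 (next 7.08). At 6.1 months Slc44a2 was 8.551 in rTg4510 mouse11 (next 8.41) and 8.389 in tTA mouse17 (next 8.27). At 10.7 months Slc1a1 was 10.36 in tTA mouse116 (next 10.21).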

How the results depend on the processing

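No paired analysis was possible because the groups share no replicate numbers, each mouse having its own. For most alternatives the counts of carriers called stayed within 1.5 times of those reported, with these exceptions. For rTg4510 against tTA, the choroid plexus score as a covariate left 10 carriers at 4.7 months (20 without it), and fitting only the compared groups left 24 at 6.1 months (39). For tTA against DN at 6.1 months (10), the score gave 16, and leaving out the mice numbered 75 and above gave 2. At 10.7 months (1), unmoderated variances gave 0, all 9 groups in 1 fit 4, and brighter probe sets alone, centred arrays, quantile normalization and the mean of all probe sets 2 each. With age, all 9 groups in 1 fit gave 15 in rTg4510 (9) and 6 in tTA (2), while in DN (2) unmoderated variances and the mean of all probe sets gave 1 each and leaving out the mice numbered 75 and above 0. On the linear scale 1 carrier had a tTA minus DN difference that varied with age (0). The cause of these shifts was not tested. Centring each array also moved rTg4510 against DN at 6.1 months from 34 higher and 17 lower to 26 and 21.

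Leaving out 1 mouse gave 12 to 25 calls for rTg4510 against tTA at 4.7 months, the lowest without rTg4510 mouse44 (12) and tTA mouse60 (13), and 28 to 40 at 6.1 months. For tTA against DN it gave 5 to 11 at 4.7 months (5 without DN mouse59 or tTA mouse60), 5 to 12 at 6.1 months (5 without DN mouse28, 6 without DN mouse79) and 0 to 3 at 10.7 months (0 without any one of DN mouse117, mouse118 and mouse120 and tTA mouse112, mouse113 and mouse115, 3 without DN mouse119). The range was 1 to 2 for age in DN (1 without mouse117).

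The direction of a named difference turned only with the probe set. Slc4a4 against DN at 6.1 months was -0.073 as the mean of its probe sets and -0.61 by another probe set. By another probe set Slc39a3 was 0.053 against tTA at 6.1 months and 0.026 and 0.025 against DN at 4.7 and 6.1 months, and Slc2a3 was 0.015 in tTA against DN at 4.7 months. Of 72 named differences read by another probe set, 18 kept direction and call, 49 kept the direction without the call and 5 turned. The score as a covariate took the call from 26 of 150, and quantile normalization from 4 of 150.

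Signals near the low end of the array limit what can be read. 133 carriers lie below the median signal of all probe sets, where a change in RNA gives a smaller change in signal.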
